A study of Homo sapiens with 12 samples.

Results

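The genes described here are the 3 D-type cyclins (CCND1, CCND2, CCND3), their kinases CDK4 and CDK6, the kinase inhibitors CDKN1A, CDKN1B, CDKN2C and CDKN2D, and the cyclin G gene CCNG2. They were taken from a table of counts per gene by symbol, and all 10 were found among its 60605 gene IDs. Nascent RNA was measured by PRO-seq, in which engaged RNA polymerases extend their transcripts in a nuclear run-on and the extended RNA is sequenced, so a count reads transcription rather than RNA that has accumulated. The cells were T47D, an established human breast cancer line of luminal type that carries the estrogen receptor, so every result is for 1 cell line. The 12 libraries form 6 groups of 2, numbered 3 and 4 in each group. Hormone-starved cells were treated with 1 nM beta estradiol or with vehicle (0.1% DMSO by volume). Cells kept in complete medium were treated with 100 nM fulvestrant, 100 nM raloxifene, 100 nM tamoxifen or vehicle (0.1% DMSO by volume). The treatments lasted 1 h, and 3 days in medium are recorded for each group.

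D-type cyclins bind and activate CDK4 and CDK6, and the active kinases phosphorylate the retinoblastoma protein, which then releases E2F factors that transcribe genes of DNA synthesis. The INK4 proteins encoded by CDKN2C (p18) and CDKN2D (p19) bind the kinases directly and keep the cyclins off, whereas CDKN1A (p21) and CDKN1B (p27) act on cyclin-kinase complexes more broadly. In breast epithelium cyclin D1 is a known target of estrogen signalling, and CCNG2, an unconventional cyclin linked to cell cycle arrest, is known to be repressed by estrogen. Estradiol is the natural ligand of the receptor. Fulvestrant is a steroidal antagonist with a long side chain that causes degradation of the receptor, raloxifene is a benzothiophene and tamoxifen a triphenylethylene, both selective receptor modulators.

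Library totals ran from 3682311 counts (raloxifene library 4) to 7856803 counts (raloxifene library 3). The label of the cells was checked against marker genes. All 12 luminal markers passed the filter on low counts, and their summed level was 4718 to 6479 CPM (counts scaled to library size, with TMM factors), against 25.8 to 44.4 CPM for 7 basal and mesenchymal markers and 23.4 to 36.0 CPM for 10 markers of blood, endothelium and stroma. Of the basal and mesenchymal markers 5 of 7 passed the filter too, as did 4 of the 10 of blood, endothelium and stroma. FN1 (mean 16.8 CPM) and COL1A1 (mean 19.4 CPM) were the highest of these lists. HBB was at 0 in all 12 libraries, and KRT5 was at 0 in 8 of them. Nothing in the labels says that libraries came from separate cultures, so the p-values measure no more than how far these libraries vary, possibly for technical reasons. A culture day or sequencing run was not given in the sources used here. Of the 10 genes, 9 passed the filter and were tested. CCND2, with 2 to 7 counts per library and 46 counts in all, did not.

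To set genes against each other, levels were divided by the length of the gene in RefSeq (CPM per kb of gene span). On that scale CDK4 (8.34 CPM per kb, mean of the 12 libraries), CCND1 (7.50) and CCNG2 (7.29) were the most transcribed, followed by CDKN1B (5.84) and CDKN1A (3.30). CCND1 stood at percentile 94.2 and CCNG2 at percentile 94.0 of 18494 tested genes with a known span, with CDK4 above both. The INK4 genes were in the middle of all genes, with 1.53 CPM per kb for CDKN2D and 1.13 CPM per kb for CDKN2C. CCND3 (0.252 CPM per kb) and CDK6 (0.180 CPM per kb) were lower, at percentiles 22.8 and 19.6, and CCND2 was lowest with 0.0197 CPM per kb. The RefSeq span of CCND3 (115.103 kb) and of CDK6 (231.653 kb) includes far upstream starts or long introns, while that of CDK4 is 4.584 kb. The part of each gene that was counted was not given in the sources used here. The values of all these genes, and their order, therefore depend on the span used. Which gene led the order differed between groups. CCND1 led in estradiol-treated cells (7.56 CPM per kb), in tamoxifen-treated cells (8.87) and in cells in complete medium with vehicle (9.74), CCNG2 led in starved cells with vehicle (9.34), and CDK4 led with fulvestrant (8.62) and raloxifene (8.59). The libraries of the leading gene lay above those of the next gene in starved vehicle and with fulvestrant, and overlapped them in the other 4 groups.

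**Figure D1:**
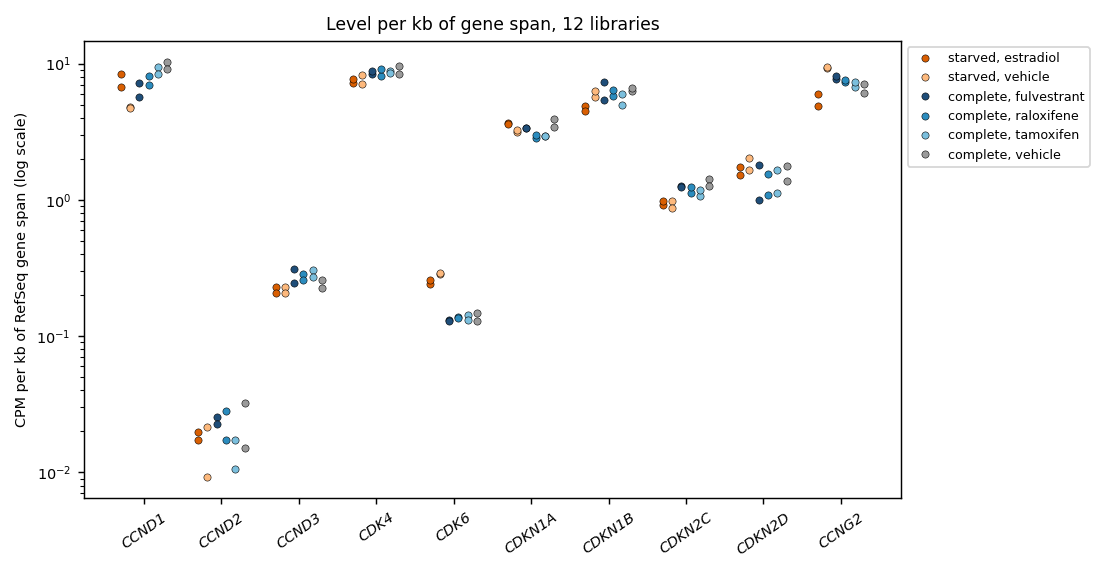
Level of each gene in the 12 libraries in CPM per kb of RefSeq gene span, on a log axis, with 1 point per library coloured by group. CDK4, CCND1 and CCNG2 lie near the top with means of 8.34, 7.50 and 7.29 CPM per kb, and CCND2 lies lowest with 0.0197 CPM per kb.

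The group means of CDK6 differed most, with the highest 2.22 times the lowest, followed by those of CCND1 (2.04 times), CCND2 (1.74 times, at 2 to 7 counts) and CCNG2 (1.73 times). Those of CDK4 (1.22 times) and CDKN1A (1.25 times) differed least. The sparsely counted genes were CCND2 (ENSG00000118971, chromosome 12, 4273762 to 4305353), with 0.292 to 1.02 CPM over the 12 libraries, and CDKN2D, the p19 gene (ENSG00000129355, chromosome 19, 10566460 to 10568979), with 2.52 to 5.12 CPM. CDKN2D had 4.36 and 3.83 CPM with estradiol, against 4.20 and 5.12 CPM in starved vehicle. In complete medium it had 4.52 and 2.52 CPM with fulvestrant, 3.92 and 2.75 CPM with raloxifene and 2.85 and 4.20 CPM with tamoxifen, against 4.45 and 3.46 CPM with vehicle. Its libraries overlapped in each of these comparisons, and it was called in none.

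**Figure D2:**
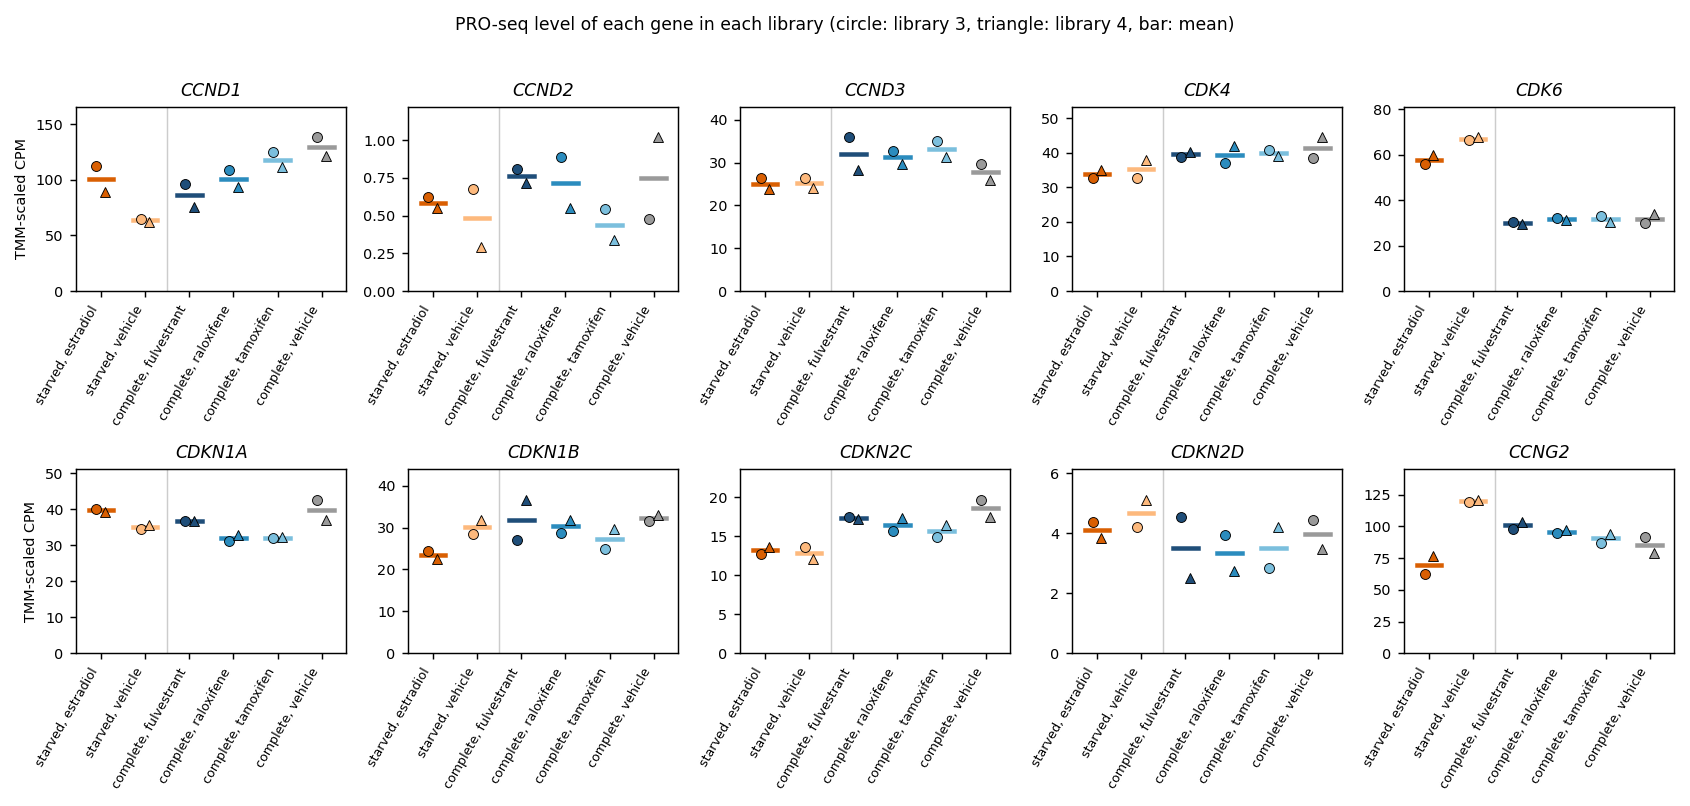
TMM-scaled CPM of each gene in every library, 1 panel per gene with its own axis from 0; circles are library 3, triangles library 4 and bars the mean of 2 libraries, with starved groups left of the grey line. CCND1 was lowest and CCNG2 highest in starved cells with vehicle, and CDK6 was 55.7 to 67.5 CPM in the 4 starved libraries against 29.7 to 34.0 CPM in the 8 libraries in complete medium.

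Estradiol given to starved cells for 1 h was compared with vehicle. CCND1, the cyclin D1 gene (ENSG00000110092, hg38 chromosome 11, 69641156 to 69654474, plus strand), rose, and CCNG2 (ENSG00000138764, chromosome 4, 77157207 to 77170060) fell. CCND1 had 112 and 89.1 CPM in estradiol libraries 3 and 4, against 64.5 and 62.4 CPM in starved vehicle libraries 3 and 4. Both estradiol libraries lay above both vehicle libraries, and the estradiol libraries differed more from each other than the vehicle libraries did. The log2 fold change of CCND1 was 0.67 ± 0.115 (standard error of the fit; 95% interval 0.43 to 0.91; quasi-likelihood test of edgeR, adjusted p = 0.00038 by the Benjamini-Hochberg method). CCNG2 had 62.4 and 76.5 CPM with estradiol, against 119 and 121 CPM in starved vehicle. The groups did not overlap, and the log2 fold change of CCNG2 was -0.80 ± 0.087 (95% interval -0.98 to -0.62; edgeR adjusted p = 1.25e-06). Both calls were kept when any 1 of the 4 libraries was left out. In bulk libraries a change in the number of cells that transcribe a gene and a change per cell cannot be told apart.

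Thus 1 of the 9 tested genes rose and 1 fell with estradiol, where 8.77% of all 23375 tested genes were called in either direction (5.04% higher and 3.74% lower). Their median log2 fold change was -0.06, against -0.01 over all tested genes. CDKN1B, the p27 gene (ENSG00000111276, chromosome 12, 12717368 to 12722369), had 24.4 and 22.5 CPM with estradiol, against 28.6 and 31.7 CPM in starved vehicle. These libraries did not overlap, which held for 5 of the 10 genes and for 49.4% of all tested genes, and the log2 fold change of -0.36 ± 0.138 missed the threshold (edgeR adjusted p = 0.132). CDK6 had 55.7 and 59.9 CPM against 66.2 and 67.5 CPM, a log2 fold change of -0.21 ± 0.083 (edgeR adjusted p = 0.142). For CDKN1A, the p21 gene (ENSG00000124762, chromosome 6, 36676463 to 36687332), the log2 fold change was 0.18 ± 0.096 (edgeR adjusted p = 0.327), from 40.1 and 39.3 CPM with estradiol and 34.4 and 35.7 CPM in starved vehicle. The other 4 tested genes (CCND3, CDK4, CDKN2C and CDKN2D) had fold changes within 1 standard error of 0. Over the 7 genes that were not called, the 95% intervals reached from -0.81 to 0.45 on the log2 scale. The summed level of the 12 luminal markers was 6219 to 6401 CPM with estradiol and 4718 to 4729 CPM in starved vehicle, and that of the 7 basal and mesenchymal markers 27.5 to 32.9 CPM with estradiol and 39.3 to 44.4 CPM in starved vehicle. The luminal sum includes ESR1, the estrogen receptor gene, itself called higher with estradiol (log2 fold change 0.44 ± 0.040; edgeR adjusted p = 1.05e-07). The part of either sum in the results with estradiol was not tested.

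**Figure D3:**
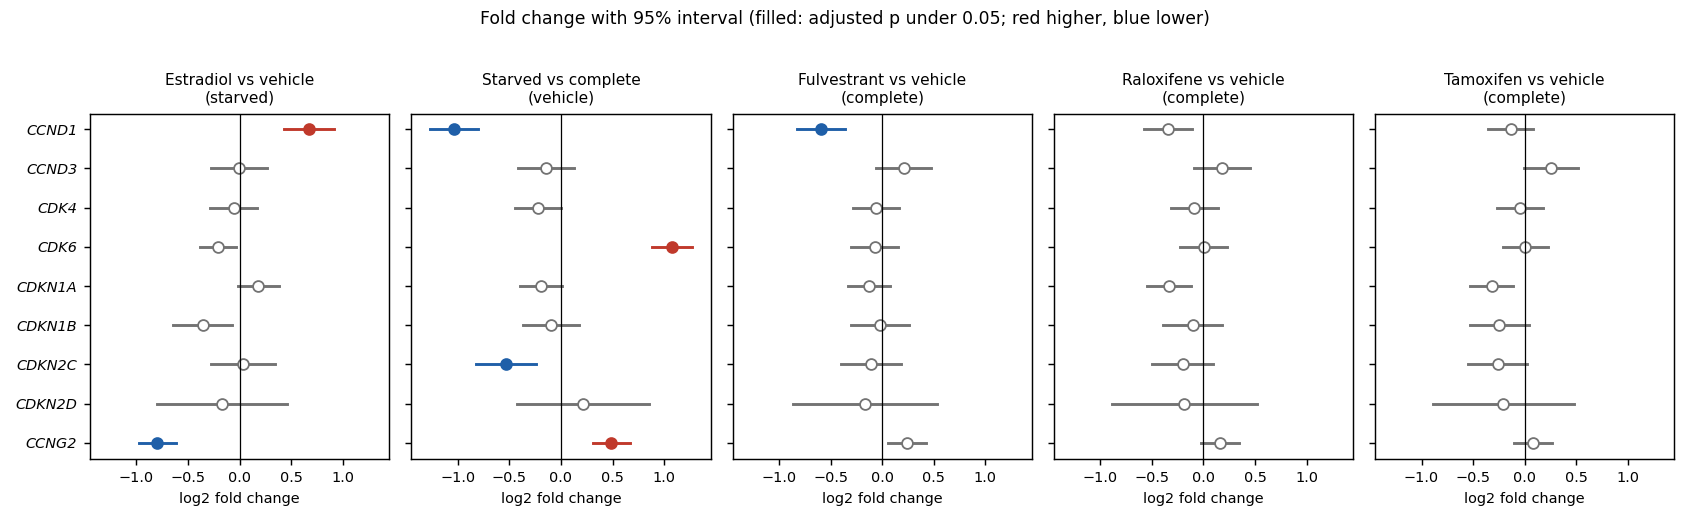
Log2 fold change (point) and 95% interval (line) of the 9 tested genes in 5 comparisons; filled points have an adjusted p under 0.05, red for higher and blue for lower in the first-named group. CCND1 and CCNG2 are filled in opposite directions with estradiol (0.67 and -0.80), 4 genes are filled for starved against complete medium, CCND1 alone with fulvestrant, and none with raloxifene or tamoxifen.

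Starved cells with vehicle were then compared with cells in complete medium with vehicle. The starved vehicle libraries are those that estradiol was compared with, so opposite changes of any gene in these comparisons are not independent. CCND1 was lower and CCNG2 higher in starved cells, CDK6 was higher and CDKN2C lower. CCND1 had 64.5 and 62.4 CPM in starved vehicle, against 138 and 121 CPM in complete vehicle. Every starved library lay below every complete library, with a log2 fold change of -1.04 ± 0.113 (95% interval -1.27 to -0.80; edgeR adjusted p = 8.87e-07). CDK6 (ENSG00000105810, chromosome 7, 92604921 to 92836573, minus strand) had 66.2 and 67.5 CPM in starved vehicle, against 29.7 and 34.0 CPM in complete vehicle. The log2 fold change was 1.08 ± 0.093 (95% interval 0.88 to 1.27; edgeR adjusted p = 3.14e-08). CCNG2 had 119 and 121 CPM in starved vehicle, against 91.4 and 78.8 CPM in complete vehicle, a log2 fold change of 0.49 ± 0.085 (95% interval 0.31 to 0.67; edgeR adjusted p = 0.000249). These calls of CCND1, CDK6 and CCNG2 were kept when any 1 of the 4 libraries was left out.

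CDKN2C, the p18 gene (ENSG00000123080, chromosome 1, 50960745 to 50974634), had 13.7 and 12.1 CPM in starved vehicle, against 19.7 and 17.5 CPM in complete vehicle. The log2 fold change was -0.53 ± 0.140 (edgeR adjusted p = 0.00947), and it rests on single libraries. Without starved vehicle library 4 it was -0.45 (adjusted p = 0.108), without complete vehicle library 3 it was -0.43 (adjusted p = 0.156), and DESeq2 gave an adjusted p of 0.153. Of the 9 tested genes, 2 rose and 2 fell, where 18.8% of all tested genes were called (9.1% higher and 9.67% lower), and the median log2 fold change was -0.14 against 0.01 over all tested genes. The libraries of the groups did not overlap for 6 of the 10 genes and for 58.7% of all tested genes. CDK4 (ENSG00000135446, chromosome 12, 57747727 to 57752310) had 32.6 and 38.0 CPM in starved vehicle, against 38.5 and 44.4 CPM in complete vehicle. Its log2 fold change of -0.22 ± 0.107 missed the threshold (edgeR adjusted p = 0.166), as did those of CDKN1A (-0.19 ± 0.097, adjusted p = 0.19) and CCND3 (-0.14 ± 0.130, adjusted p = 0.519). Those of CDKN1B and CDKN2D lay within 1 standard error of 0. The summed level of the 12 luminal markers differed with the medium too, with 4718 to 4729 CPM in starved vehicle and 6420 to 6479 CPM in complete vehicle. That of the 7 basal and mesenchymal markers was 39.3 to 44.4 CPM in starved vehicle and 25.8 to 30.8 CPM in complete vehicle. ESR1, in the luminal sum, was itself called lower in starved vehicle (log2 fold change -0.96 ± 0.040; edgeR adjusted p = 6.4e-13). The part of either sum in these results was not tested.

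The kinases share their cyclins, so their ratio was followed in each library. In raw counts of the same library, CDK6 had 2.03 and 1.78 times the counts of CDK4 in starved vehicle libraries 3 and 4, and 1.70 and 1.71 times with estradiol. In complete medium the ratio was 0.788 and 0.737 with fulvestrant, 0.863 and 0.750 with raloxifene, 0.813 and 0.777 with tamoxifen, and 0.773 and 0.766 with vehicle. All 4 starved libraries lay above all 8 libraries in complete medium. The highest upper limit in complete medium was 1.02 and the lowest lower limit in starved cells 1.43 (95% exact binomial intervals, which cover counting error only). A ratio of raw counts depends on the lengths counted, so only its differences between libraries are read. The 3 ratios shown were picked after the levels were seen and are a description, and 2 libraries against 2 cannot give an exact permutation p under 0.3333.

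RefSeq promoter windows, which run from 250 bases before to 50 bases after a gene's start, were read for the members in assembly GRCh38.p14. There were 13 windows for 8 of the 10 genes. None was available for CCND1 or CCND2, so their promoters were not read. The windows of CDK6, which was higher in starved cells, of its partner kinase CDK4, which was not called there, and of CCNG2, which was called with both medium and estradiol, are shown 5′ to 3′ on the strand of the gene, with matches to the searched motifs in capitals on either strand. They are CDK4 at chr12:57752261-57752560 (minus strand), CDK6 at chr7:92836524-92836823 (minus strand), a further start of CDK6 at chr7:92833910-92834209 (minus strand), and CCNG2 at chr4:77156957-77157256 (plus strand).
CDK4: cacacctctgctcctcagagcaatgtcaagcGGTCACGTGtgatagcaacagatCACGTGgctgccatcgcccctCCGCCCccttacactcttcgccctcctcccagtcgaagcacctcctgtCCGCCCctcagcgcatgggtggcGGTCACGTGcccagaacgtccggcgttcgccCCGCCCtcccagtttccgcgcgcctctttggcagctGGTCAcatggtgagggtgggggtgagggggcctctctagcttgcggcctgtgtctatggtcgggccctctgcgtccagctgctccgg
CDK6: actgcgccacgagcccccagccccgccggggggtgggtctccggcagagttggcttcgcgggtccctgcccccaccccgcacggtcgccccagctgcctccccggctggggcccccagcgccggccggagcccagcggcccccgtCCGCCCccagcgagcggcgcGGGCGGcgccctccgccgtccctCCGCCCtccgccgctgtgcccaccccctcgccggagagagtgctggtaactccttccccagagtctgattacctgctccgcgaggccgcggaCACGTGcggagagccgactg
CDK6 second start: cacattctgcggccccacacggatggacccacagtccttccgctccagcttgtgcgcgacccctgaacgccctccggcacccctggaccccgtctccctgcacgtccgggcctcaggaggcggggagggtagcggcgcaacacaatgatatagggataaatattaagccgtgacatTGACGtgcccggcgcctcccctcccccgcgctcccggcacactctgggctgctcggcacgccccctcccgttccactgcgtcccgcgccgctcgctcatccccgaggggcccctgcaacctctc
CCNG2: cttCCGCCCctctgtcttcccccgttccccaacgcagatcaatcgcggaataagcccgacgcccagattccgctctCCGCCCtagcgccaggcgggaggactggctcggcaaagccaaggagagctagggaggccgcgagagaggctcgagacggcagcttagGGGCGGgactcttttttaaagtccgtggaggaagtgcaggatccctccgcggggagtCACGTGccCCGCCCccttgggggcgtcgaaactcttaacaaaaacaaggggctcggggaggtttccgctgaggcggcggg

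The motifs searched were GGTCA (the core of an estrogen response element), a whole element (GGTCA, any 3 bases and its reverse complement), the GC box GGGCGG, the AP-1 site TGACTCA, the cyclic AMP response element TGACGTCA and its core TGACG, the forkhead site GTAAACA, the E2F sites TTTCGCGC and TTTGGCGC, the E box CACGTG and the TATA box TATAAA. The CDK4 window held 3 matches of GGTCA, 3 GC boxes and 3 E boxes, and 2 of the E boxes overlap a GGTCA. In the first CDK6 window there were 3 GC boxes and 1 E box, and in the second 1 TGACG. The CCNG2 window held 4 GC boxes and 1 E box, and no GGTCA. Of 35116 RefSeq promoters of the same length, 37.4% held GGTCA, 45.0% a GC box, 7.26% an E box, 24.6% TGACG, 4.95% an AP-1 site, 3.42% the forkhead site, 11.5% a TATA box and 1.15% an E2F site. A whole element was found in 0.057% and the cyclic AMP response element in 1.85%. A match is a string of letters and not a site of binding.

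**Figure D4:**
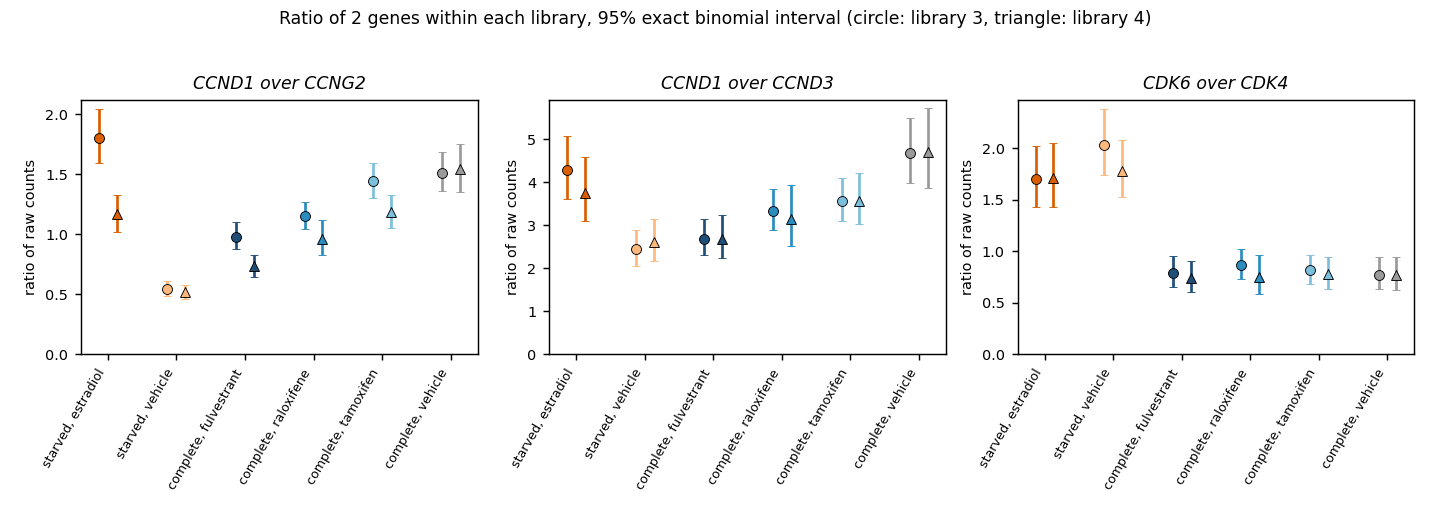
Ratio of the raw counts of 2 genes within each library, with the 95% exact binomial interval; circles are library 3 and triangles library 4, and each axis starts at 0. CDK6 over CDK4 is 1.70 to 2.03 in the 4 starved libraries and 0.737 to 0.863 in complete medium, and CCND1 over CCNG2 is lowest in starved vehicle (0.542 and 0.515).

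The ratio of CCND1 to CCNG2 combines their opposite changes. CCND1 had 1.8 and 1.16 times the raw counts of CCNG2 in estradiol libraries 3 and 4, against 0.542 and 0.515 times in starved vehicle. The ratio was 0.980 and 0.731 with fulvestrant, 1.15 and 0.963 with raloxifene and 1.44 and 1.18 with tamoxifen, against 1.51 and 1.54 in complete vehicle. The estradiol libraries lay on both sides of the complete vehicle libraries. CCND1 over its paralog CCND3 (ENSG00000112576, chromosome 6, 41934933 to 42050035) was 4.27 and 3.75 with estradiol, against 2.44 and 2.60 in starved vehicle. It was 2.69 and 2.68 with fulvestrant, 3.33 and 3.14 with raloxifene and 3.56 and 3.57 with tamoxifen, against 4.67 and 4.69 in complete vehicle. In complete medium the ratios of each drug lay below those of vehicle, and the libraries of each drug lay close together. The level of CCND3 itself was 23.7 to 26.4 CPM in the 4 starved libraries and 25.9 to 35.9 CPM in complete medium, and it passed no test.

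In complete medium each of the 3 drugs was set against vehicle. CCND1 fell with fulvestrant, and this was the 1 call among the 9 tested genes and 3 drugs. CCND1 had 96.4 and 75.7 CPM with fulvestrant, 109 and 93.3 CPM with raloxifene and 125 and 111 CPM with tamoxifen, against 138 and 121 CPM in complete vehicle. The fulvestrant and raloxifene libraries lay below both vehicle libraries, and tamoxifen library 3 lay between them. The log2 fold change was -0.59 ± 0.111 with fulvestrant (95% interval -0.82 to -0.36; edgeR adjusted p = 0.00492), -0.34 ± 0.110 with raloxifene (95% interval -0.57 to -0.11; adjusted p = 0.25) and -0.14 ± 0.106 with tamoxifen (95% interval -0.36 to 0.08; adjusted p = 0.869). The fulvestrant call rests on single libraries. It was lost without complete vehicle library 3 (-0.49, adjusted p = 0.204) and without fulvestrant library 4 (-0.43, adjusted p = 0.142). Without the filter on low counts CCND1 was also called with raloxifene (-0.36, adjusted p = 0.000991). It was called there with library number as a block too (-0.36, edgeR adjusted p = 0.000383), though the labels do not say that the numbers pair libraries. The summed level of the 12 luminal markers was 5434 to 5555 CPM with fulvestrant, 5567 to 6102 CPM with raloxifene and 5803 to 6050 CPM with tamoxifen, against 6420 to 6479 CPM in complete vehicle. ESR1, in that sum, was itself called lower with fulvestrant (log2 fold change -0.24 ± 0.040; edgeR adjusted p = 0.0017). The part of the sum in these results was not tested. All 3 drug groups share their vehicle libraries.

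With fulvestrant, 1 of 9 tested genes fell and 0 rose, where 1.16% of all tested genes were called (0.107% higher and 1.05% lower). With raloxifene and with tamoxifen 0 of 9 were called by edgeR, where 0.569% and 0.0513% of all tested genes were. DESeq2 also called 0 of 9 with each. At an unadjusted p under 0.05 there were 2 of the 9 genes (2285 of all) with raloxifene and 1 (1530 of all) with tamoxifen. CDKN1A had 36.7 and 36.7 CPM with fulvestrant, 31.1 and 32.7 CPM with raloxifene and 32.0 and 32.2 CPM with tamoxifen, against 42.6 and 37.1 CPM in complete vehicle. All 6 drug libraries lay below both vehicle libraries. Libraries did not overlap with vehicle for 4 of the 10 genes with fulvestrant, 5 with raloxifene and 4 with tamoxifen, and for 37.1%, 37.6% and 34.3% of all tested genes. The log2 fold changes of CDKN1A were -0.13 ± 0.099 with fulvestrant, -0.34 ± 0.102 with raloxifene and -0.32 ± 0.099 with tamoxifen (edgeR adjusted p = 0.887, 0.215 and 0.505). CCNG2 had 98.4 and 104 CPM with fulvestrant, 94.7 and 96.8 CPM with raloxifene and 86.7 and 94.3 CPM with tamoxifen, against 91.4 and 78.8 CPM in complete vehicle. Its log2 fold change was 0.24 ± 0.088 with fulvestrant (adjusted p = 0.425) and 0.16 ± 0.090 with raloxifene (adjusted p = 0.598), and it was within 1 standard error of 0 with tamoxifen.

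CDK6 had 30.5 and 29.7 CPM with fulvestrant, 31.9 and 31.4 CPM with raloxifene and 33.1 and 30.4 CPM with tamoxifen, against 29.7 and 34.0 CPM in complete vehicle. Its fold change was within 1 standard error of 0 with each drug, and the 95% intervals reached from -0.30 to 0.22 on the log2 scale. CDK4 had 38.8 and 40.3 CPM with fulvestrant, 37.0 and 41.8 CPM with raloxifene and 40.7 and 39.1 CPM with tamoxifen, against 38.5 and 44.4 CPM in complete vehicle, and was likewise within 1 standard error of 0 with each drug. CDKN2C was 14.9 to 17.4 CPM in the 6 drug libraries, against 19.7 and 17.5 CPM in complete vehicle, with log2 fold changes of -0.20 ± 0.140 with raloxifene and -0.26 ± 0.137 with tamoxifen (edgeR adjusted p = 0.686 and 0.782). CDKN1B had 27.0 and 36.7 CPM with fulvestrant, 28.7 and 31.9 CPM with raloxifene and 24.9 and 29.7 CPM with tamoxifen, against 31.5 and 33.0 CPM in complete vehicle. Its log2 fold change with tamoxifen was -0.25 ± 0.135 (adjusted p = 0.796), and with the other drugs it was within 1 standard error of 0. CCND3 had log2 fold changes of 0.21 ± 0.129 with fulvestrant, 0.18 ± 0.131 with raloxifene and 0.26 ± 0.126 with tamoxifen (adjusted p = 0.825, 0.707 and 0.762). When single libraries were left out these ranged from 0.01 (without fulvestrant library 3) to 0.36 with fulvestrant, from 0.09 to 0.28 with raloxifene and from 0.16 to 0.36 with tamoxifen, and none was called.

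The drugs were also compared with each other at their shared dose of 100 nM and time of 1 h, in 3 pairs. edgeR called 0 of the 9 tested genes in each pair, as did DESeq2. Of all tested genes 0.462% were called for tamoxifen against fulvestrant, 0.103% for raloxifene against fulvestrant and 0.00428% for tamoxifen against raloxifene. Without the filter on low counts CCND1 was called for tamoxifen against fulvestrant (0.46, edgeR adjusted p = 3.34e-06). The same held with library number as a block (0.45, edgeR adjusted p = 6.66e-06), though the labels do not say that the numbers pair libraries. At an unadjusted p under 0.05 there were 1, 1 and 0 of the 9 genes in these pairs (1187, 1146 and 1061 of all tested genes). CCND1 had 125 and 111 CPM with the triphenylethylene tamoxifen, against 96.4 and 75.7 CPM with the steroidal fulvestrant. These libraries did not overlap, which held for 5 of the 10 genes (CCND2, which was not tested, among them) and for 30.9% of all tested genes. The log2 difference was 0.46 ± 0.110 (95% interval 0.23 to 0.69; edgeR adjusted p = 0.0881, and 0.184 when adjusted over all genes and the 3 pairs together). It was called in 1 of the 4 fits that left out 1 library, with 0.65 without fulvestrant library 3 (adjusted p = 0.0301), and was 0.29 without fulvestrant library 4. For the benzothiophene raloxifene against fulvestrant it was 0.25 ± 0.115 (95% interval 0.01 to 0.49; adjusted p = 0.981), and it was 0.09 without fulvestrant library 4, 0.11 without raloxifene library 3 and 0.44 without fulvestrant library 3. For tamoxifen against raloxifene it was 0.21 ± 0.109 (95% interval -0.02 to 0.43; adjusted p = 1), and 0.12 to 0.34 when single libraries were left out. The log2 difference of CDKN1A was -0.21 ± 0.103 for raloxifene against fulvestrant (95% interval -0.42 to 0.01; adjusted p = 0.981) and -0.19 ± 0.100 for tamoxifen against fulvestrant (95% interval -0.40 to 0.02; adjusted p = 0.997). The intervals do not show that the drugs act alike on these genes.

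Estradiol-treated starved cells were set against cells in complete medium with vehicle, which differ in medium and in treatment. CDK6 was higher in the estradiol-treated cells, with 55.7 and 59.9 CPM against 29.7 and 34.0 CPM, a log2 fold change of 0.86 ± 0.097 (95% interval 0.66 to 1.07; edgeR adjusted p = 1.72e-06). CCND1 had 112 and 89.1 CPM in estradiol-treated cells, against 138 and 121 CPM in complete vehicle, a log2 fold change of -0.36 ± 0.109 (adjusted p = 0.0252). CCNG2 had 62.4 and 76.5 CPM, against 91.4 and 78.8 CPM in complete vehicle, a log2 fold change of -0.31 ± 0.093 (adjusted p = 0.026). CDKN2C changed by -0.50 ± 0.144 (adjusted p = 0.0191) and CDKN1B by -0.45 ± 0.141 (adjusted p = 0.0317), while CDK4 with -0.28 ± 0.110 missed the threshold (adjusted p = 0.0934). Hence 1 of 9 tested genes rose and 4 fell, where 16.2% of all tested genes were called (8.09% higher and 8.11% lower), and the libraries of 6 of the 10 genes did not overlap, against 55.6% of all tested genes. Only the call of CDK6 was kept in each fit that left out 1 library and by DESeq2. Without estradiol library 3 the calls of CCNG2 (-0.15), CDKN1B (-0.51) and CDKN2C (-0.44) were lost, without estradiol library 4 those of CCND1 (-0.21), CDKN1B (-0.40) and CDKN2C (-0.55), without complete vehicle library 3 those of CCND1 (-0.25), CCNG2 (-0.18), CDKN1B (-0.48) and CDKN2C (-0.40), and without complete vehicle library 4 that of CDKN1B (-0.42). DESeq2 called none of the 4.

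Genes around and downstream of the cyclin D kinases were taken from lists. Of 18 genes of the retinoblastoma, E2F and cyclin E step, 10 fell and 0 rose in starved against complete vehicle, where 9.67% of all tested genes were called lower and 9.1% higher. Their median log2 fold change was -0.33, against 0.01 over all tested genes. The 4 with the smallest adjusted p were E2F7, RBL1, E2F6 and E2F8. E2F7, a repressor of E2F targets, averaged 64.6 ± 3.08 CPM in starved vehicle and 111 ± 1.30 CPM in complete vehicle (SD, n = 2 each), a log2 fold change of -0.78 ± 0.075 (edgeR adjusted p = 1.4e-07). RBL1, which encodes the retinoblastoma relative p107, averaged 109 ± 1.31 CPM in starved vehicle and 162 ± 2.08 CPM in complete vehicle (-0.57 ± 0.073, edgeR adjusted p = 6.06e-06). E2F6 changed by -0.63 ± 0.092 and E2F8 by -0.81 ± 0.148 (edgeR adjusted p = 3.45e-05 and 0.000445). Without complete vehicle library 3, 6 of the 18 fell and 0 rose, and by DESeq2 7 fell.

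With estradiol, 1 of these 18 genes rose and 0 fell, a share near that of all tested genes (5.04% called higher and 3.74% lower). It was E2F6, a repressor that lacks the retinoblastoma-binding domain, with 50.3 ± 1.08 CPM with estradiol and 33.7 ± 0.57 CPM in starved vehicle (SD, n = 2 each) and a log2 fold change of 0.58 ± 0.091 (edgeR adjusted p = 0.000162). The median log2 fold change of the 18 was -0.02, against -0.01 over all tested genes. In estradiol-treated starved cells against complete vehicle, 0 rose and 9 fell, where 8.09% of all tested genes were called higher and 8.11% lower, with a median of -0.22 against 0.00 over all tested genes. Without complete vehicle library 3, 5 of the 18 fell. With each drug against vehicle 0 of the 18 were called by edgeR. Of all tested genes 1.16% were called with fulvestrant, 0.569% with raloxifene and 0.0513% with tamoxifen.

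**Figure D5:**
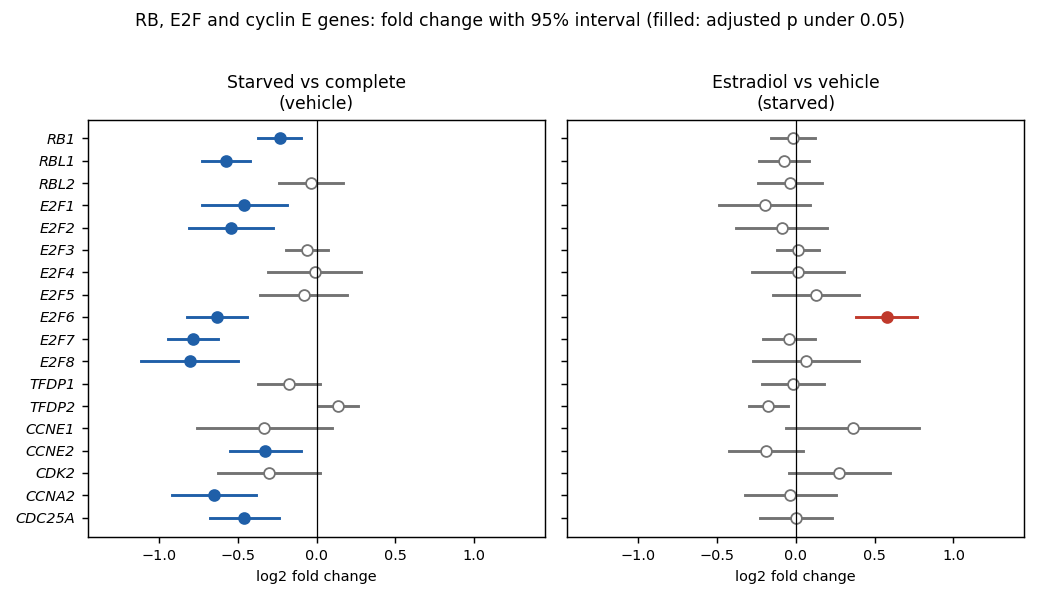
Log2 fold change (point) and 95% interval (line) of 18 genes of the retinoblastoma, E2F and cyclin E step, for starved against complete medium in vehicle and for estradiol against vehicle in starved cells; filled points have an adjusted p under 0.05. In the first panel 10 genes lie below 0 and are filled, and in the second only E2F6 is filled, at 0.58.

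Among 6 further inhibitors and cyclins, 5 were tested (CDKN1C was not). CDKN2B, the INK4 gene of p15, averaged 30.0 ± 1.87 CPM in starved vehicle and 10.00 ± 0.029 CPM in complete vehicle (SD, n = 2 each), a log2 fold change of 1.58 ± 0.152 (edgeR adjusted p = 1.44e-07). In estradiol-treated starved cells it averaged 27.9 ± 3.64 CPM, 1.47 ± 0.157 above complete vehicle on the log2 scale (edgeR adjusted p = 8.89e-07). Both calls were kept when any 1 library was left out. Its neighbour CDKN2A rose by 0.37 ± 0.086 in starved against complete vehicle (edgeR adjusted p = 0.00356). CCNI rose by 0.28 ± 0.095 (adjusted p = 0.0463, lost when any 1 library was left out), and the phosphatase gene CDKN3 changed by -0.53 ± 0.106 (adjusted p = 0.00102). So 3 of the 5 rose and 1 fell in this comparison, where 18.8% of all tested genes were called in either direction. With estradiol against starved vehicle edgeR called 0 of the 5, where 8.77% of all tested genes were called.

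Of 16 genes of the assembly and turnover of cyclin D kinases, 3 rose and 0 fell in starved against complete vehicle, a share near the 18.8% of all tested genes called there. They were CUL4B, USP2 (log2 fold change 0.45) and GSK3B (0.18). The call of USP2 was lost when any 1 library was left out, and that of GSK3B in 3 of the 4 such fits. DESeq2 called 1 of the 16, and gave adjusted p-values of 0.232 for USP2 and 0.0914 for GSK3B. With estradiol 0 rose and 2 fell, and 8.77% of all tested genes were called. CUL4B, a cullin of ubiquitin ligases, was called in both, with 0.51 ± 0.109 in starved against complete vehicle (edgeR adjusted p = 0.00197) and -0.35 ± 0.106 with estradiol against starved vehicle (adjusted p = 0.0436, lost when any 1 library was left out). These comparisons share the starved vehicle libraries. SKP2, which marks p27 for degradation, averaged 40.7 ± 3.42 CPM with estradiol and 53.4 ± 0.29 CPM in starved vehicle (SD, n = 2 each), a log2 fold change of -0.40 ± 0.108 (adjusted p = 0.0223, lost in 3 of the 4 fits that left out 1 library). Of 12 genes of FOXO factors and their signalling inputs, 0 rose and 2 fell in starved against complete vehicle, namely FOXM1, a mitotic transcription factor (-0.67 ± 0.117, adjusted p = 0.000275), and PIK3R1, a regulatory subunit of PI3 kinase (-0.33 ± 0.067, adjusted p = 0.00106). That count is likewise near the 18.8% of all tested genes called. PIK3R1 also rose with estradiol against starved vehicle (0.22 ± 0.067, adjusted p = 0.0444, lost when any 1 library was left out). With fulvestrant PIK3R1 was the 1 called gene of all 4 lists, where 1.16% of all tested genes were called. It had 127 ± 2.97 CPM against 160.2 ± 6.74 CPM in complete vehicle and a log2 fold change of -0.34 ± 0.068 (edgeR adjusted p = 0.00843, lost in 3 of the 4 fits that left out 1 library). FOXO1, FOXO3 and FOXO4 were called neither in starved against complete vehicle nor with estradiol against starved vehicle. In estradiol-treated starved cells against complete vehicle, 1 of the 12 rose and 1 fell, where 16.2% of all tested genes were called. FOXM1 was lower, with a log2 fold change of -0.59 (-0.67 to -0.49 when single libraries were left out). FOXO3 was higher, at 133 ± 2.82 CPM against 107 ± 5.47 CPM (SD, n = 2 each) and a log2 fold change of 0.32 ± 0.080 (edgeR adjusted p = 0.00871). That call was lost without estradiol library 4 and without complete vehicle library 3 (adjusted p = 0.0649 and 0.132).

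Neighbouring genes were chosen by position. LTO1, 11.089 kb beyond the end of CCND1, had 103 and 99.0 CPM with estradiol and 91.3 and 95.3 CPM in starved vehicle, and 92.6 and 96.4 CPM with fulvestrant and 96.4 and 96.9 CPM in complete vehicle. It was called in none of the 9 comparisons. LINC02952, a long non-coding RNA gene 196.19 kb before CCND1, had 1.9 and 1.32 CPM in starved vehicle, against 4.13 and 3.67 CPM in complete vehicle (log2 fold change -1.27 ± 0.374, edgeR adjusted p = 0.0204, lost when any 1 library was left out). In estradiol-treated cells it had 0.778 and 0.913 CPM, a log2 fold change of -2.20 ± 0.446 against complete vehicle (edgeR adjusted p = 0.00139). With 5 to 36 counts per library its values are uncertain. LINC01488, 147.946 kb before CCND1, had 0 to 4 counts per library. Genes on the opposite strand overlap CDK4 (TSPAN31), CDK6 (CDK6-AS1), CDKN1A (DINOL) and CCND2 (CCND2-AS1). Further RefSeq genes, whose strand was not read, overlap CCNG2 (LOC101928864, across its start), CCND3 (LOC105375059 and RNU6-761P) and CDK6 (LOC112268009 and RNU6-10P). The strand setting of the counting was not given in the sources used here, so the counts of all these overlapping genes are uncertain. TSPAN31, CDK6-AS1 and DINOL were called in no comparison, and CDK6-AS1 averaged 1.28 CPM in starved vehicle, where CDK6 had 66.2 and 67.5 CPM.

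For the genes with at least 1 call, those with the most similar log2 CPM over the 12 libraries were listed, out of 14628 genes with a mean of at least 50 counts. The libraries share groups and depth, so these values of Pearson's r are a description. For CCND1 they were RIPOR3 (0.964), ACOX2 (0.951) and PCNT (0.946). For CDK6 they were BCAS1 (0.991), MAML2 (0.990) and LINC00504 (0.988), for CCNG2 ZBED5-AS1 (0.954), PPM1H (0.952) and ENAH (0.946), and for CDKN1B TMEM245 (0.916), RFLNA (0.915) and the gene ENSG00000287876 (0.912). For CDKN2C they were CCNA2, the cyclin A2 gene (0.959), IER5 (0.953) and FAM83D (0.953).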

How the data were processed

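PRO-seq libraries of T47D cells (12, in 6 groups of 2) were used. The authors deposited 1 table of raw counts per Ensembl gene, without normalization. Per the submitters' processing notes, the reads passed through cutadapt 1.8.1, Bowtie2 2.4.4 and SAMtools 1.9, and the build was hg38. How counts were made (tool, annotation, strand setting, part of the gene) was not given in the sources used here, so promoter-proximal and gene-body polymerase are not told apart. Libraries were grouped by their labels. The titles number the libraries of a group 1 and 2 and the descriptions 3 and 4, which are used here. The protocol text describes complete medium, so starvation was taken from group names and the series design, and the vehicle of the estradiol libraries was not given in the sources used here.

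Of 60605 IDs, 60463 matched a symbol, and the 142 others held 0.281% of counts. Of IDs that share a symbol the one with most counts was kept, which left 59410 genes. The analysis used edgeR 4.0.16 in R 4.3.3. Genes were filtered with filterByExpr (23375 kept), library sizes were scaled by TMM (factors 0.982 to 1.02), and 1 quasi-likelihood model, with group as its term, was fitted to all 12 libraries. Each of 9 comparisons was tested with edgeR's quasi-likelihood test, with Benjamini-Hochberg adjustment over all tested genes and a threshold of 0.05, also for adjusted p-values where no tool is named beside them. The procedure was tested on simulated data for estradiol against starved vehicle. It recovered 80 of 100 genes with a true log2 fold change of 1 in size and 91 of 100 with 2, with 7 false calls. Smaller changes were not simulated. Levels are TMM-scaled CPM, and log2 fold changes carry the standard error of the fit. The 2 libraries of each group were not duplicates: the chi-square per gene between them was 1.20 to 2.34, above sampling noise. Positions, spans and promoters came from RefSeq (GRCh38.p14). Counts may hold PCR duplicates, so intervals on counts cover counting error only.

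The genes, lists and tests were chosen with earlier results of these data known. All 10 members are described, with up to 4 called genes of each list and comparison by adjusted p, the 3 most similar genes of each called member, and neighbours by position. Called list genes in estradiol-treated against complete vehicle are named only in part. Alternatives were RLE size factors, unscaled libraries, no filter on low counts, library number as a block, fits of the compared groups alone, DESeq2 1.42.0, and leaving out each library.

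Library numbers were not taken to pair libraries, since the labels do not say so and each group has 2.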

Additional observations from a re-analysis of the deposited data

How the results depend on the processing

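The calls of CCND1 and CCNG2 with estradiol against starved vehicle, of CCND1, CDK6 and CCNG2 in starved against complete vehicle, and of CDK6 in estradiol-treated against complete vehicle were kept under each alternative run, leaving out single libraries included. RLE size factors and unscaled libraries moved no count of called genes or members by over 1.5 times. DESeq2 called 1078 genes with estradiol (2051 by edgeR), 2301 in starved against complete vehicle (4386), 20 with tamoxifen (12), and 2050 in estradiol-treated against complete vehicle (3788), where it called 1 of the 10 members in place of 5. Without the filter on low counts 354 genes were called with raloxifene (133 with it), 93 with tamoxifen, 170 for tamoxifen against fulvestrant (108), 90 for raloxifene against fulvestrant (24) and 65 for tamoxifen against raloxifene (1). CCND1 was then the 1 member called with raloxifene (-0.36, adjusted p = 0.000991) and for tamoxifen against fulvestrant (0.46, adjusted p = 3.34e-06). Fits of the compared groups alone called 21 genes with tamoxifen, 66 for tamoxifen against fulvestrant and 0 for tamoxifen against raloxifene. The call of CDKN2C in estradiol-treated against complete vehicle was lost without the filter (-0.47, adjusted p = 0.0803). The cause of these differences was not tested.

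Library numbers as a replicate block raised the counts to 498 genes with fulvestrant, 490 with raloxifene, 172 with tamoxifen, 242 for tamoxifen against fulvestrant, 77 for raloxifene against fulvestrant and 35 for tamoxifen against raloxifene. With the block 1 member, CCND1, was called with raloxifene (-0.36, adjusted p = 0.000383) and 1 for tamoxifen against fulvestrant (CCND1, 0.45, adjusted p = 6.66e-06), and CDKN1B with estradiol (-0.35, adjusted p = 0.035) and CDK4 in estradiol-treated against complete vehicle (-0.28, adjusted p = 0.0374) were called as well. The block ended no call of a member. Deviations of same-numbered libraries from their group means correlated at 0.099 to 0.423 over 15 pairs of groups.

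When single libraries were left out, the genes called numbered 1155 to 1325 with estradiol, 2555 to 2875 in starved against complete vehicle, 143 to 197 with fulvestrant, 29 to 204 with raloxifene, 0 to 13 with tamoxifen, 48 to 86 for tamoxifen against fulvestrant, 14 to 168 for raloxifene against fulvestrant, 0 to 164 for tamoxifen against raloxifene and 2229 to 2616 in estradiol-treated against complete vehicle. The members called numbered 2 with estradiol, 3 to 4 in starved against complete vehicle, 0 to 1 with fulvestrant and for tamoxifen against fulvestrant, 1 to 4 in estradiol-treated against complete vehicle, and 0 otherwise. The log2 difference of CDKN1B for tamoxifen against fulvestrant, not called, was -0.22, ranged from -0.43 to 0.0061 and changed sign without fulvestrant library 4. CDKN2D, with 10 to 35 counts per library, and CCND2, with 2 to 7, are limited by depth.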
